A study of Mus musculus with 9 samples.

Results

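The 10 genes of steroid hormone synthesis described here were followed step by step through RNA-seq of mouse ovary: Scarb1, Star, Cyp11a1, Fdx1, Hsd3b1, Hsd3b6, Cyp19a1, Hsd17b1, Hsd17b7 and Srd5a1. They were chosen by name, with earlier results of these data known. All 10 were found among the 55536 genes listed, by matching the listed Ensembl identifiers to the symbols of GENCODE M21. The 9 ovary samples form 3 groups of 3. The tumour group and the hyperplasia group both carry the genotype FOXL2 WT/C134W, with 1 normal and 1 mutant copy of a transcription factor gene of granulosa cells, and are labelled as granulosa cell tumour and as hyperplasia. The wild-type group carries FOXL2 WT/WT. Age, strain and stage of the oestrous cycle are not given in the sources used here, and neither is how the mutation was introduced. Whether the samples of a group came from separate animals is not stated, and p-values therefore cover the spread of these 9 samples and no more. The third tumour and the third hyperplasia sample share the stem of their titles. Gene counts sum both Foxl2 copies and so do not check the genotype labels.

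Steroid hormones are made from cholesterol, which the receptor SCARB1 takes up from high-density lipoprotein and STAR moves to the inner mitochondrial membrane. There CYP11A1, fed with electrons by ferredoxin (FDX1), cuts the side chain to give pregnenolone, and 3β-hydroxysteroid dehydrogenases turn pregnenolone into progesterone. In the ovary theca cells make androgens with CYP17A1, granulosa cells turn androgens into oestrogens with CYP19A1 (aromatase) and HSD17B1, and luteal cells, which form after ovulation, make mainly progesterone.

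Library totals ran from 11661820 to 20890487 counts, and mitochondrial genes took 2.54% to 4.18% of them. Levels are given as CPM, which is the count divided by the TMM-scaled library total, for comparing libraries, and as TPM, which also corrects for transcript length, for comparing genes. A floor of 3 counts was worth 0.144 to 0.257 CPM before scaling, so the genes described here were far above it in most libraries. Summed CPM of 11 granulosa cell markers was 4033 to 5002 in tumours, 1217 to 3681 in hyperplasia and 1946 to 4473 in wild type. The markers did not move together. In tumour against wild type 7 of the 11 had a log2 fold change above 0 and 4 below, namely Amh, Inhba, Gatm and Fst. Of the 11, 0 passed the test given below. Hyperplasia library 2 held 38.2 CPM and wild-type library 2 held 32.3 CPM of Cyp11b1, an enzyme of the adrenal cortex, against 0 to 0.623 CPM in the other 7 libraries. Cyp11b2, also of the adrenal cortex, was at 0 counts in every library. Results of the 10 genes, and of the list genes fitted again without those 2 libraries, are given with and without them where they change.

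In tumours compared with wild type, Cyp11a1, the enzyme of the first committed step, fell to 714 ± 298 CPM, against 6785 ± 2419 CPM in wild type (SD, n = 3 each). It was the only gene of the 10 to pass the test, edgeR's quasi-likelihood test with Benjamini-Hochberg (BH) adjustment over all 16213 genes tested at a threshold of 0.05. DESeq2 called 7 of the 10 and 1761 of all genes, where edgeR called 259. It added Star, Fdx1, Hsd3b1, Hsd17b7 and Srd5a1 as lower and Hsd3b6 as higher in tumours. The edgeR fit with a term for the shared title stem called 0 of the 10 and 0 of all genes. The edgeR count is 1 of 10, where 1.6% of all genes tested were called, 1.25% lower and 0.352% higher. The tumour libraries all lay below all wild-type libraries for 6 of the 10 genes, namely Star, Cyp11a1, Fdx1, Hsd3b1, Hsd17b7 and Srd5a1, where 13.4% of all genes tested did so. None lay wholly above, where 10.6% of all genes tested did. Log2 fold changes were below 0 for 8 of the 10 (49.1% of all genes tested) and above 0 for Hsd3b6 and Cyp19a1, with a median of −1.69 against 0.01 over all genes. Without adjustment, 7 of the 10 had a p under 0.05, as 20.1% of all genes did. Because the 10 genes were chosen with earlier results of these data known, these shares describe them and are not a test. In these bulk samples fewer cells of a steroid-making type and less RNA per cell cannot be told apart.

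**Figure D1:**
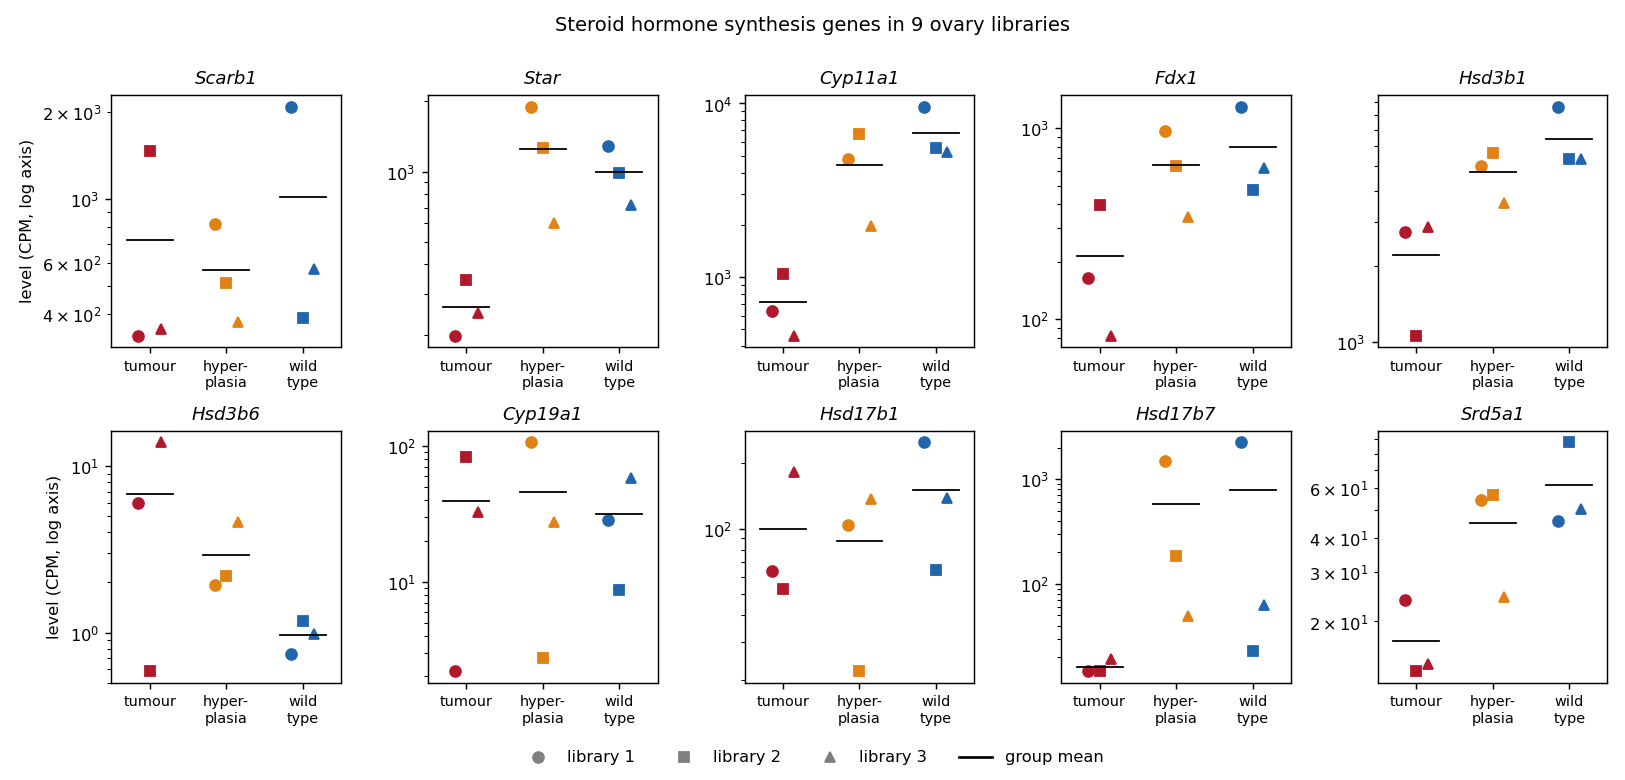
Level of each of the 10 steroid synthesis genes in every library, in CPM on a log axis, for tumour, hyperplasia and wild type; each symbol is 1 library (circle, square and triangle for libraries 1, 2 and 3) and each line the group mean. The 3 tumour libraries lie between 459 and 1042 CPM for Cyp11a1 and the 3 wild-type libraries between 5248 and 9573 CPM, while the groups overlap for Scarb1, Cyp19a1 and Hsd17b1.

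Cholesterol uptake and delivery came first in the pathway. Scarb1 (GRCm38 chromosome 5, 125277087 to 125341094, minus strand) had 336, 1469 and 356 CPM in tumours, 821, 511 and 374 CPM in hyperplasia and 2086, 387 and 574 CPM in wild type. Tumour library 2 and wild-type library 1 were high and the groups overlapped. The log2 fold change of tumour against wild type was −0.50 (95% interval −2.19 to 1.20; edgeR, BH adjusted p = 0.763). Without wild-type library 1 it was 0.59, on the other side of 0.

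Star (chromosome 8, 25806555 to 25815982, plus strand) had 198, 342 and 248 CPM in tumours, 1898, 1258 and 604 CPM in hyperplasia and 1293, 983 and 717 CPM in wild type. All 3 tumours lay below the other 6 libraries, and hyperplasia overlapped wild type on both sides. Star stood at a log2 fold change of −1.93 (SE 0.45, 95% interval −2.93 to −0.92) in tumour against wild type, and the adjusted p of 0.0647 missed the threshold (edgeR, BH). The fit passed when only the groups compared were used (adjusted p = 0.0462), with no filter on low counts (0.0270) and without hyperplasia library 3 (0.0366, edgeR, BH). With DESeq2, Star passed in 4 of 19 alternatives. With each library left out its adjusted p ran up to 0.166 (edgeR, BH). In tumour against hyperplasia the log2 fold change of Star was −2.26 (SE 0.45, edgeR, BH adjusted p = 0.0817), and in hyperplasia against wild type 0.33 (95% interval −0.64 to 1.301).

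Cleavage of the cholesterol side chain showed the 1 called change. Cyp11a1 (chromosome 9, 58006411 to 58027023, plus strand) had 642, 1042 and 459 CPM in tumours, 4766, 6632 and 1959 CPM in hyperplasia and 9573, 5533 and 5248 CPM in wild type. Tumours lay below every other library, and hyperplasia library 3, which shares its title stem with tumour library 3, was the lowest of the other 6. The log2 fold change of tumour against wild type was −3.25 (SE 0.56, 95% interval −4.52 to −1.98, edgeR, BH adjusted p = 0.0403), a level 9.50-fold lower in tumours. Between tumour and hyperplasia it was −2.64 (SE 0.55, edgeR, BH adjusted p = 0.0889), with ranges that did not overlap.

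The size of the Cyp11a1 difference held without any 1 library, at −3.62 to −2.92 on the log2 scale, but the call did not. The edgeR, BH adjusted p was 0.127, 0.0529 and 0.103 without tumour library 1, 2 or 3, 0.0504 without hyperplasia library 2, and 0.0833, 0.0906 and 0.0810 without wild-type library 1, 2 or 3. It was 0.0523 with a term for the shared title stem, at −2.90, and 0.134 without the 2 libraries with Cyp11b1, at −3.40 (edgeR, BH). The gene overlaps the noncoding gene Gm17322 by 1041 bases on the same strand; that gene had at most 83 counts in a library.

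Fdx1, the ferredoxin that hands electrons to CYP11A1 (chromosome 9, 51943306 to 51963556, minus strand), had 164, 395 and 82.0 CPM in tumours, 965, 632 and 343 CPM in hyperplasia and 1297, 475 and 619 CPM in wild type. Tumours lay below wild type, but tumour library 2 lay above hyperplasia library 3. Tumour against wild type gave a log2 fold change of −1.90 (SE 0.64, 95% interval −3.34 to −0.46, edgeR, BH adjusted p = 0.143). On log2 TPM with a pseudocount of 1 the difference was −2.21 and passed (limma, BH adjusted p = 0.0309). Fdx1 passed in 3 of 19 alternatives, the others being log2 TPM plus 0.1 and DESeq2. With each library left out its adjusted p was 0.0717 to 0.298 (edgeR, BH). Per transcript length, Fdx1 stood at 0.701, 1.05 and 0.505 of the Cyp11a1 TPM in tumours, 0.543, 0.263 and 0.486 in hyperplasia and 0.384, 0.242 and 0.325 in wild type. The tumour ratios of Fdx1 to Cyp11a1 thus lay above all wild-type ratios and overlapped those of hyperplasia.

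The electron donors hold 5 genes tested, none of which passed in tumour against wild type, with 2 below 0 and a median of 0.08. Fdxr, the reductase that loads ferredoxin with electrons, had 127, 213 and 119 CPM in tumours, 208, 455 and 191 CPM in hyperplasia and 652, 424 and 259 CPM in wild type. Tumours lay below wild type for Fdxr (log2 fold change −1.54, edgeR, BH adjusted p = 0.111). Por, which serves the microsomal enzymes CYP17A1 and CYP19A1, averaged 186 ± 168 CPM in tumours and 123 ± 32.5 CPM in wild type (SD, n = 3 each; log2 fold change 0.60). The Por value rested on tumour library 2, at 380.2 CPM, and was −0.46 without it.

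The next step belongs to the 3β-hydroxysteroid dehydrogenases, of which mouse Hsd3b1 is the main form of ovary and adrenal gland and Hsd3b6 is known from Leydig cells, placenta and adrenal gland. Both genes lie on the minus strand of chromosome 3, Hsd3b1 from 98852194 to 98859794 and Hsd3b6 from 98805504 to 98814443. The 250 bases upstream of each RefSeq start (GRCm38.p6, minus strand, written 5′ to 3′ along the gene) are shown because these closely spaced relatives stood at the top and near the bottom of the 10 genes in level. Capitals mark the GATA motif AGATAA, searched on both strands, which appears in Hsd3b1 as its reverse complement TTATCT.
Hsd3b1, chr3:98859795-98860044: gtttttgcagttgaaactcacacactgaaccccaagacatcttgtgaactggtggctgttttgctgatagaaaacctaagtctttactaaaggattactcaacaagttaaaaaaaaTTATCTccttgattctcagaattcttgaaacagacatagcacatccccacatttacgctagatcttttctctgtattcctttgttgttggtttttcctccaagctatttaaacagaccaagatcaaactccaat
Hsd3b6, chr3:98814444-98814693: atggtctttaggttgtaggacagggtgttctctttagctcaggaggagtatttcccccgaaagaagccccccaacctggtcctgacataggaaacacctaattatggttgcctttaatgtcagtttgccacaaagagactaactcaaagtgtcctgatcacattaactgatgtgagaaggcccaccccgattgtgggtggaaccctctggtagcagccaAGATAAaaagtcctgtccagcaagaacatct

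The motif stands 134 bases upstream of the start in Hsd3b1 and 31 bases upstream in Hsd3b6. Of all 32851 RefSeq windows from 250 bases before to 50 after a start, 11.2% hold it. The steroidogenic factor motif AAGGTCA (in 4.72% of all windows), the forkhead motif GTAAACA (3.65%) and the cyclic AMP motif TGACGTCA (1.79%) were in none of the 10 windows that match 7 of the 10 genes. TATAAA (13.6%) was found in 2 windows of Cyp19a1. These are letter matches only. Star, Scarb1 and Hsd17b1 were not searched.

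Hsd3b1 had 2727, 1056 and 2879 CPM in tumours, 5022, 5654 and 3566 CPM in hyperplasia and 8637, 5341 and 5363 CPM in wild type. Every tumour lay below every other library, and tumour library 2 was the lowest. Its log2 fold change of tumour against wild type was −1.54 (SE 0.46, 95% interval −2.57 to −0.51), and its adjusted p was 0.112 (edgeR, BH). In tumour against hyperplasia it was −1.10 (SE 0.45, edgeR, BH adjusted p = 0.323).

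Hsd3b6 was a minor transcript with 6.02, 0.585 and 13.9 CPM in tumours, 1.93, 2.17 and 4.65 CPM in hyperplasia and 0.746, 1.18 and 0.977 CPM in wild type. Tumour libraries 1 and 3 were the highest of the 9 and tumour library 2 the lowest, so tumours overlapped both other groups, while all hyperplasia libraries lay above all wild-type libraries. Tumour against wild type gave a log2 fold change of 2.82 (SE 0.91, 95% interval 0.77 to 4.87, edgeR, BH adjusted p = 0.131). It was 1.78 without tumour library 3. In hyperplasia against wild type it was 1.59 (SE 0.88, edgeR, BH adjusted p = 0.999).

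Reads of the 3β family can be shared between members. Of the 50-base stretches of Hsd3b6 transcripts, 15.5% occur in at least 1 of the other 5 Hsd3b genes examined, most of them (13.2%) in Hsd3b2, so its values are uncertain. For Hsd3b1 the share is 2.16%. The deposited count was not a whole number in 1 of 9 libraries for Hsd3b6 and in 0 of 9 for Hsd3b1. Hsd3b1 exceeded Hsd3b6 in TPM by 403-, 1554- and 196-fold in tumours, 2330-, 2057- and 664-fold in hyperplasia and 8930-, 4308- and 5307-fold in wild type. Every tumour ratio lay below every wild-type ratio. Of the 5 further genes of the family, 1 had enough counts to be tested, Hsd3b7, a bile acid enzyme, with 20.6 ± 2.66 CPM in tumours and 33.0 ± 5.51 CPM in wild type (SD, n = 3 each; log2 fold change −0.68, edgeR, BH adjusted p = 0.173).

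The genes of oestrogen synthesis varied widely between libraries of 1 group. Cyp19a1, aromatase (chromosome 9, 54165937 to 54268110, minus strand), had 2.19, 83.2 and 33.0 CPM in tumours, 107, 2.75 and 27.8 CPM in hyperplasia and 28.6, 8.72 and 57.9 CPM in wild type. The highest library of a group exceeded the lowest by 38.1-fold in tumours, 39.0-fold in hyperplasia and 6.64-fold in wild type, and all groups overlapped. The log2 fold change of tumour against wild type was 0.31 with a 95% interval of −2.61 to 3.23 (edgeR, BH adjusted p = 0.925), wide enough to hold large changes both ways. Its sign turned under 3 other scalings or tests, at −0.62 with limma-voom and at −0.41 and −0.56 on log2 TPM, and without tumour library 2, at −0.85, or wild-type library 2, at −0.17.

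Hsd17b1, the granulosa cell enzyme that turns oestrone into oestradiol (chromosome 11, 101078411 to 101080527, plus strand), had 63.5, 52.7 and 183 CPM in tumours, 104, 21.9 and 137 CPM in hyperplasia and 251, 64.1 and 138 CPM in wild type. The groups overlapped, and library 2 was the lowest of each group. Tumour against wild type gave −0.60 (95% interval −2.25 to 1.05, edgeR, BH adjusted p = 0.6999). Per length, the ratio of Hsd17b1 to Cyp19a1 TPM ran from 1.25 to 57.2 in tumours, 1.93 to 15.2 in hyperplasia and 4.72 to 16.9 in wild type, so the levels of Hsd17b1 and Cyp19a1 kept no fixed ratio.

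Cyp17a1, the theca cell enzyme that supplies androgen to aromatase, was as uneven, with 115, 263 and 29.2 CPM in tumours, 267, 1.304 and 18.2 CPM in hyperplasia and 49.6, 1.41 and 268 CPM in wild type. The 2 lowest libraries, hyperplasia library 2 and wild-type library 2, were those with Cyp11b1. The hyperplasia library and the wild-type library with Cyp11b1 were also the lowest of their groups for Cyp19a1 and Hsd17b1. The part of adrenal tissue in these values was not tested.

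Hsd17b7, known in rodents as an enzyme of the corpus luteum that makes oestradiol and also as an enzyme of cholesterol synthesis (chromosome 1, 169949535 to 169969241, minus strand), had 14.6, 14.6 and 19.2 CPM in tumours, 1494, 185 and 49.3 CPM in hyperplasia and 2258, 23.0 and 62.6 CPM in wild type. The tumours were alike and lay below the other 6 libraries, whereas hyperplasia library 1 and wild-type library 1 stood far above the rest. In tumour against wild type the log2 fold change was −5.60 with an SE of 1.87 (95% interval −9.81 to −1.39, edgeR, BH adjusted p = 0.140). Wild-type library 1 carried most of it, and without that library the value was −1.41 (edgeR, BH adjusted p = 0.507). In hyperplasia against wild type it was −0.44, and 3.75 without wild-type library 1.

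Srd5a1, a 5α-reductase that turns progesterone and testosterone into their 5α-reduced forms (chromosome 13, 69573449 to 69611442, minus strand), had 24.0, 13.3 and 14.0 CPM in tumours, 54.6, 56.7 and 24.5 CPM in hyperplasia and 45.9, 87.9 and 50.8 CPM in wild type. Tumours lay below all others, with hyperplasia library 3 just above the highest of them. The log2 fold change of tumour against wild type was −1.85 (SE 0.41, 95% interval −2.77 to −0.92, edgeR, BH adjusted p = 0.0610). It passed with no filter on low counts (adjusted p = 0.0227) and without hyperplasia library 3 (0.0363, edgeR, BH). With DESeq2, Srd5a1 passed in 3 of 19 alternatives. With each library left out its adjusted p ran up to 0.157 (edgeR, BH). Srd5a1 lies wholly within Nsun2 on the opposite strand. It also shares 945 bases with Gm17108 on the same strand, a gene with at most 32 counts in a library. The deposited count of Srd5a1 was not a whole number in 9 of 9 libraries, so its values are uncertain.

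**Figure D2:**
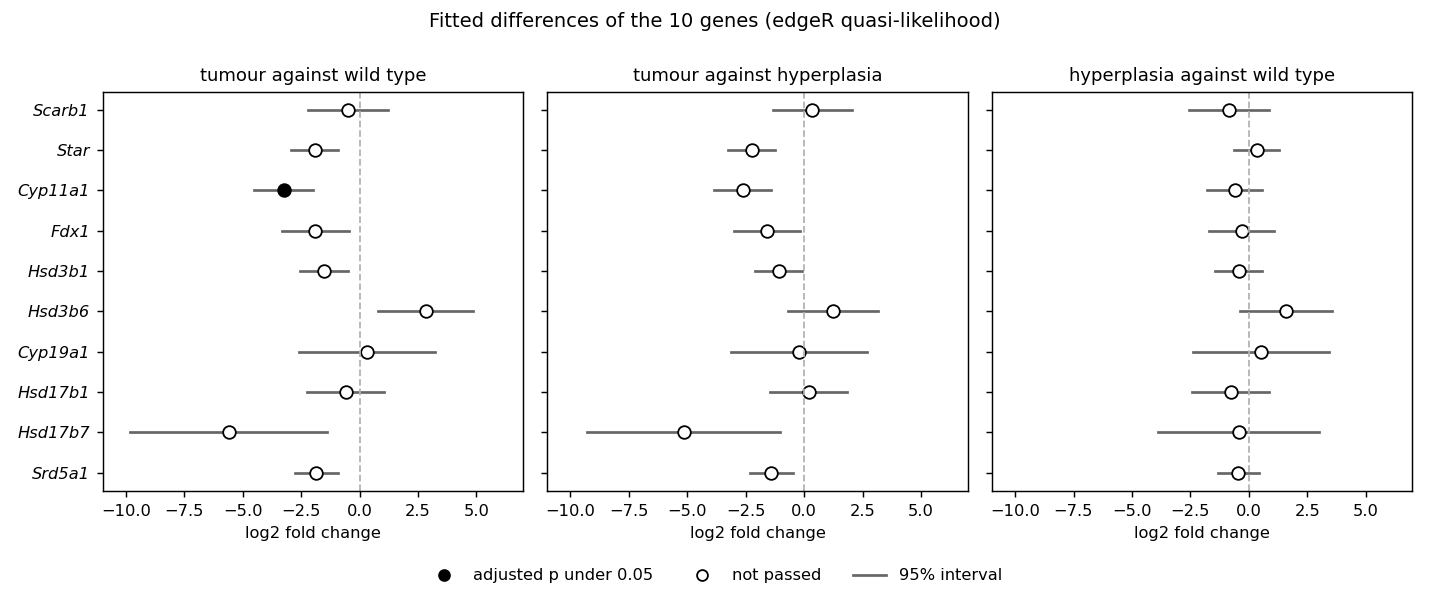
Log2 fold change of the 10 genes with 95% intervals in tumour against wild type, tumour against hyperplasia and hyperplasia against wild type, from the edgeR fit over 9 libraries; filled symbols have a Benjamini-Hochberg adjusted p under 0.05. Only Cyp11a1 in tumour against wild type, at −3.25, is filled, and the intervals of Hsd17b7 and Cyp19a1 are the widest of the 10 in tumour against wild type.

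Set side by side per transcript length, Hsd3b1 was the highest of the 10 genes in 9 of 9 libraries. Its TPM was 2593, 637 and 3043 in tumours, 5428, 6232 and 3779 in hyperplasia and 6340, 5945 and 5731 in wild type. Among all genes listed it ranked 39, 212 and 30 in tumours, 10, 6 and 16 in hyperplasia and 12, 8 and 9 in wild type. Cyp11a1 had 502, 514 and 389 TPM in tumours, 4145, 5766 and 1626 TPM in hyperplasia and 5438, 4970 and 4571 TPM in wild type, and ranked 249, 255 and 309 in tumours against 16, 12 and 13 in wild type.

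The 10 genes together made up 0.396%, 0.253% and 0.439% of all TPM in tumours, 1.45%, 1.503% and 0.711% in hyperplasia and 1.61%, 1.34% and 1.302% in wild type. The 3 tumour sums lay below all others. The mean TPM in tumours was 9.38% of that in wild type for Cyp11a1, 22.7% for Fdx1, 29.6% for Star and 34.8% for Hsd3b1. Whether these steps were lower in unequal measure was not tested. In the edgeR fit of tumour against wild type the intervals of their log2 fold changes overlapped. They ran from −4.52 to −1.98 for Cyp11a1, −3.34 to −0.46 for Fdx1, −2.93 to −0.92 for Star and −2.57 to −0.51 for Hsd3b1.

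Ratios between neighbouring steps differed between libraries. Hsd3b1 exceeded Cyp11a1 in TPM by 5.17-, 1.24- and 7.82-fold in tumours, 1.31-, 1.08- and 2.32-fold in hyperplasia and 1.17-, 1.20- and 1.25-fold in wild type. In tumour libraries 1 and 3 the ratio was higher than in any other library, whereas in tumour library 2 it lay within the wild-type range. Cyp11a1 exceeded Star by 2.99-, 3.70- and 2.18-fold in tumours, 3.51-, 5.89- and 4.12-fold in hyperplasia and 14.8-, 6.34- and 9.41-fold in wild type. The ratio of Cyp11a1 to Star in TPM was thus below the wild-type range in all 6 mutant libraries. The size of the ratio in wild-type library 1 depends on the unit. Star in that library was the highest of its group in CPM, at 1293, but the lowest in TPM, at 367.

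**Figure D3:**
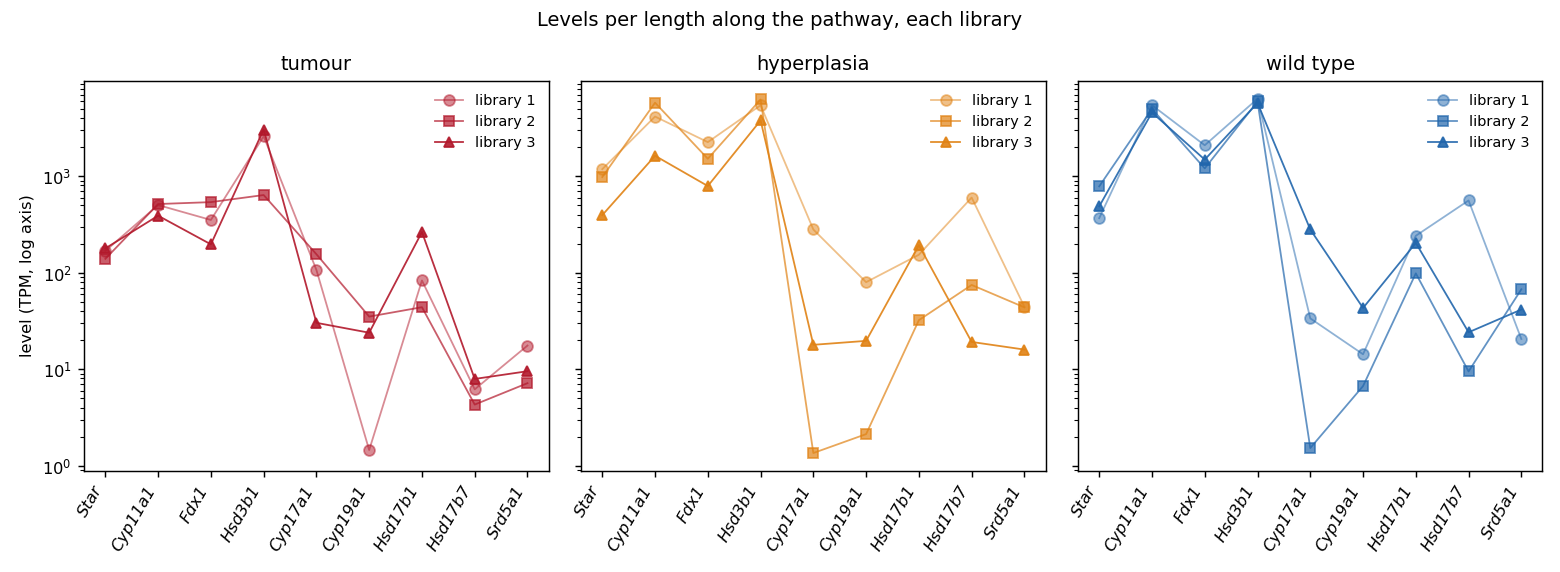
TPM of the steps from Star to Srd5a1 in pathway order on a log axis, with Cyp17a1 added and Hsd3b6 not shown. There is 1 panel each for tumour, hyperplasia and wild type and 1 line per library, on a shared axis. At Cyp11a1 the tumour lines stand at 389 to 514 TPM, against 4571 to 5438 TPM in wild type, and at Cyp17a1, Cyp19a1 and Hsd17b1 the ranges of the 3 panels overlap.

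Hyperplasia, which carries the same genotype as the tumours, was not distinguished from wild type at any step. None of the 10 genes passed, where 0% of all genes were called (edgeR, BH). At an unadjusted p under 0.05 there were 0 of the 10 and 3.53% of all genes, 572 in number, and DESeq2 called 21 genes and limma-voom 0. Only Hsd3b6 had ranges that did not overlap, higher in hyperplasia, where 4.63% of all genes did so, and none was wholly lower, where 5.18% were. The median log2 fold change of the 10 was −0.44, against a median of 0.00 over all genes. The 95% intervals were wide enough to hold sizable differences, from −1.77 to 0.56 for Cyp11a1 and from −1.45 to 0.57 for Hsd3b1.

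Between tumour and hyperplasia the ranges of Star, Cyp11a1, Hsd3b1, Hsd17b7 and Srd5a1 did not overlap and were lower in tumours, 5 of 10 where 12.4% of all genes tested were so. None passed, where 0.185% of all genes were called, 30 in number and all lower (edgeR, BH). Without adjustment 6 of 10 had a p under 0.05, against 14.1% of all genes. DESeq2 called 4 of the 10 and 805 of all genes. The median was −1.25, against 0.05 over all genes. Tumour against hyperplasia and tumour against wild type share the tumour libraries, so their values for a gene are not independent.

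With both mutant groups averaged against wild type, none of the 10 genes passed, where 0.0123% of all genes were called. At an unadjusted p under 0.05 there were 5 of 10, against 11.8% of all genes. DESeq2 called 1 of the 10 and 633 of all genes. Cyp11a1 stood at −1.93 (SE 0.43, edgeR, BH adjusted p = 0.103), Srd5a1 at −1.14 (0.203) and Hsd3b6 at 2.21 (0.341). The ranges of mutant and wild-type libraries overlapped for all 10, and did not for 4.32% of all genes.

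Other genes that feed, surround or regulate the pathway were read from lists. Of 11 genes of cholesterol supply, 0 passed in tumour against wild type, 9 were below 0 and the median was −0.45. Nceh1, which frees cholesterol from stored esters, had 47.5, 44.7 and 40.7 CPM in tumours, 66.4, 65.5 and 51.0 CPM in hyperplasia and 79.2, 57.1 and 99.3 CPM in wild type, and tumours lay below all others (−0.83, edgeR, BH adjusted p = 0.1004).

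Of 11 further 17β-hydroxysteroid dehydrogenases and androgen-making genes, 5 had enough counts and 0 passed. The smallest p-values belonged to Hsd17b12, at −0.73, and Hsd17b11, at −0.24 (edgeR, BH adjusted p = 0.236 and 0.599). Of 9 genes of steroid reduction and inactivation, 7 were tested and 1 fell, Hsd11b1, which regenerates active glucocorticoid. It had 0.530, 0.878 and 0.252 CPM in tumours, 1.82, 3.48 and 2.11 CPM in hyperplasia and 4.28, 4.42 and 3.22 CPM in wild type. The tumours lay below all others, and hyperplasia overlapped wild type. Its log2 fold change was −2.84 (SE 0.53, edgeR, BH adjusted p = 0.0449), but the counts were low and the call was lost without any 1 library other than hyperplasia library 3 (adjusted p 0.0517 to 0.129).

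Of 18 regulators of steroidogenesis, 1 fell, Prlr, the prolactin receptor that sustains the rodent corpus luteum, while 9 were below 0 and 9 above with a median of 0.15. Prlr had 50.7, 31.3 and 123 CPM in tumours, 739.5, 512.5 and 268 CPM in hyperplasia and 1047, 369 and 559.7 CPM in wild type. The tumours lay below all others (−3.27, SE 0.64, edgeR, BH adjusted p = 0.0464), and this call too was lost without any 1 library other than hyperplasia library 3 (adjusted p 0.0504 to 0.134). In the other 3 comparisons 0 genes of these lists passed.

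Markers of some other cell types differed between the groups and those of others did not. Summed CPM of 9 luteal markers was 336 to 435 in tumours, 3948 to 4701 in hyperplasia and 1186 to 8862 in wild type, with none of the markers at 0 in all libraries. In tumours against wild type 2 of the 9, Ptgfr and Prlr, fell and 1, Fam110c, rose, while 8 were below 0 with a median of −2.90 and the ranges of Akr1c18, Parm1 and Apoa4 overlapped. Fam110c had 68.2, 113 and 61.8 CPM in tumours, 44.4, 42.6 and 54.6 CPM in hyperplasia and 12.9, 26.7 and 25.1 CPM in wild type, opposite in sign to the other 8 (1.91, edgeR, BH adjusted p = 0.0404). Its call was lost without any 1 library other than hyperplasia library 1 or 3 (edgeR, BH adjusted p 0.0560 to 0.123). Ptgfr, the receptor for the prostaglandin that ends luteal life, had 4.63, 6.24 and 4.62 CPM in tumours, 291, 385 and 215 CPM in hyperplasia and 991, 77.4 and 552.5 CPM in wild type. It fell by 6.71 on the log2 scale in tumours against wild type and by 5.85 against hyperplasia (edgeR, BH adjusted p = 0.0287 and 0.0402). Against wild type the Ptgfr call was lost without tumour library 1 or 3 (edgeR, BH adjusted p = 0.117 and 0.0947) and without wild-type library 1 or 3 (edgeR, BH adjusted p = 0.0518 and 0.0607). Against hyperplasia it was lost without any 1 library other than wild-type library 2 and hyperplasia library 3 (adjusted p 0.0582 to 0.228).

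Lhcgr, the receptor for luteinizing hormone, had 67.6, 108 and 67.5 CPM in tumours, 444, 179 and 77.5 CPM in hyperplasia and 838, 227 and 346 CPM in wild type. Tumours lay below wild type and overlapped hyperplasia. The summed luteal markers, like Star, Cyp11a1, Fdx1, Hsd3b1 and Hsd17b7, were lower in every tumour than in every wild-type library, and the part of luteal cells in those values was not tested. Wild-type library 1 had the highest luteal sum, at 8862 CPM, and the highest Hsd17b7, Scarb1, Cyp11a1, Fdx1, Hsd3b1 and Hsd17b1 of all libraries in CPM. Wild-type library 2 had the lowest luteal sum of its group, at 1186 CPM against 4138 CPM in library 3. Star, Cyp11a1, Hsd3b6 and Srd5a1 were higher in wild-type library 2 than in library 3, and the rest of the steroid synthesis genes were lower.

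Summed CPM of 8 theca markers was 1293 to 1890 in tumours, 1287 to 3173 in hyperplasia and 1112 to 3808 in wild type, which overlap. Oocyte markers, 10 in number, summed to 1.68 to 5.07 CPM in tumours, 4.31 to 85.1 CPM in hyperplasia and 144 to 182 CPM in wild type, and 5 of the 9 tested fell in tumours against wild type (edgeR, BH). Macrophage markers, 8 in number, summed to 123 to 252 CPM in tumours, 263 to 328 CPM in hyperplasia and 356 to 364 CPM in wild type, and 1 of the 8 fell. Over all genes, 2 passed in tumour against wild type without the 2 libraries with Cyp11b1, and 0 with the title stem term (edgeR, BH). Most of these oocyte and macrophage calls were thus lost in the first fit and all in the second. The 5 adrenal cortex markers summed to 18.0 to 127 CPM in tumours, 34.8 to 145 CPM in hyperplasia and 30.2 to 144 CPM in wild type. Library 2 had the highest adrenal sum of each group, although tumour library 2 was not among those with Cyp11b1. The 8 markers of ovarian surface epithelium summed to 1947, 2.05 and 757 CPM in tumours, so tumour library 2, which had the lowest Hsd3b1 and Hsd3b6 and the highest tumour Scarb1 and Cyp19a1, nearly lacked them. The part of these cell types in the values of the 10 genes was not tested.

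**Figure D4:**
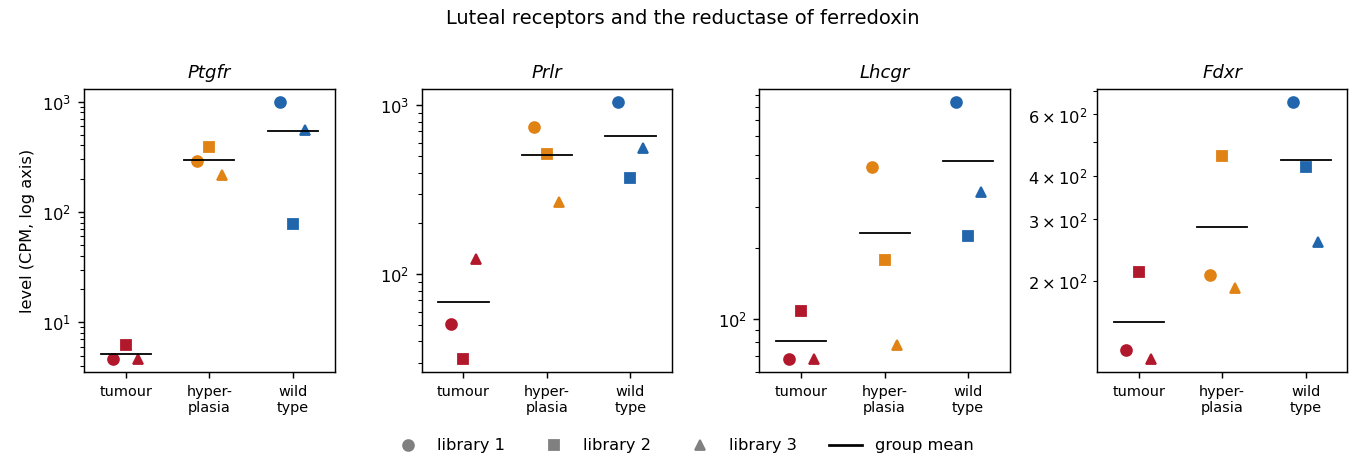
CPM on a log axis of Ptgfr, Prlr, Lhcgr and Fdxr in every library for tumour, hyperplasia and wild type; each symbol is 1 library and each line the group mean. The tumours lie below all wild-type libraries in each panel, with Ptgfr at 4.62 to 6.24 CPM in tumours against 77.4 to 991 CPM in wild type.

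The genes whose profile over the 9 libraries was most like that of a step were found among 10288 genes of at least 10 CPM on average. Predicted loci, clones and genes of the mitochondrial genome were left out by symbol and so could not be found. Likeness was the root mean square difference in log2 CPM, with a small pseudocount, after centring each gene on its mean. For Cyp11a1 they were Mgarp, a mitochondrial protein of steroid-making tissues, at 0.428, Stc1, a secreted glycoprotein hormone, at 0.480, Sgk1, a kinase induced by steroid hormones, at 0.495, Gabra3, a GABA receptor subunit, at 0.517, and Syt12, a synaptotagmin, at 0.564. Mgarp had 85.7, 83.8 and 90.5 CPM in tumours, 436, 909.5 and 282 CPM in hyperplasia and 773, 853 and 532 CPM in wild type. Like Cyp11a1 it was lowest in the 3 tumours and next lowest in hyperplasia library 3. Such shared orders of libraries, here and for the genes that follow, result from how the genes were found and are not separate evidence.

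For Hsd3b1 the nearest were Hip1r (0.225), Prrg1 (0.241), Trim12c (0.242), Dhrs7 (0.258), a short-chain dehydrogenase, and Cpeb3 (0.260). Dhrs7 had 70.6, 28.8 and 50.7 CPM in tumours, 84.1, 123 and 87.8 CPM in hyperplasia and 144, 108 and 104 CPM in wild type, again with tumour library 2 lowest. For Cyp19a1 they were farther off, Nap1l5 at 0.872, Inhbb at 0.943, Eno1b at 1.10, Tox2 at 1.11 and Fst at 1.14. Inhbb, the βB subunit of inhibin and activin made by granulosa cells, had 48.3, 1069 and 154 CPM in tumours, 598.5, 85.5 and 121 CPM in hyperplasia and 563, 161 and 418 CPM in wild type. As for Cyp19a1, tumour library 1 was the lowest tumour and hyperplasia library 2 the lowest hyperplasia library. Eno1b is a near copy of Eno1, so its value is uncertain.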

How the data were processed

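Polyadenylated RNA of 9 mouse ovary samples was sequenced from stranded TruSeq mRNA libraries after Trizol extraction, per the labels' protocols. Tools in the submitters' processing notes are RSEM 1.3.1, STAR 2.7.1a, Picard 2.8.1 and FastQC, on GRCm38, with no role or order; no source used here gives the strand setting. Per the file headers, the authors deposited expected counts, TPM and FPKM per gene. Normalisation has not been applied to the deposited expected counts, and 25.6% of values above 0 are not whole (tolerance 0.001), since RSEM shares reads between genes. The deposited TPM values, scaled by the authors for length and depth, served for comparing genes and in 2 alternatives; the deposited FPKM values were not used. Symbols and coordinates came from GENCODE M21, which matched all 55536 identifiers, and promoter sequences from RefSeq, GRCm38.p6.

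Expected counts were rounded. All 9 libraries entered 1 edgeR 4.0.16 fit (R 4.3.3, TMM scaling, filterByExpr at 10 counts and 15 in total, quasi-likelihood test), with p adjusted by Benjamini-Hochberg over 16213 genes at a threshold of 0.05. The standard error is the log2 fold change divided by the square root of F, and 95% intervals use the t distribution with the fit's degrees of freedom. The same script was tested on simulated counts. Alternatives were DESeq2 1.42.0, its size factors, limma 3.58.1 with voom or on log2 TPM plus 1 or 0.1, no filter, unrounded counts, only the groups compared, a term for the shared title stem, and each library left out.

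The 10 genes and the lists were chosen with earlier results of these data known. Named beside them are, from each list other than those of cell type markers, all genes that passed in any comparison, otherwise the 2 with the smallest p in tumour against wild type, of which 1 gene is not reported here, a few markers given beside a step (Fam110c, Parm1 and Apoa4 among the luteal markers were named after their values were seen), and the 5 genes most like Cyp11a1, Hsd3b1 and Cyp19a1. Ranges of 3 libraries a group rest on few samples, and a floor of 3 counts covers counting error only.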

Additional observations from a re-analysis of the deposited data

How the results depend on the processing

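Under the alternatives the 10 genes had 750 log2 fold changes over the 4 comparisons beside the main ones, of which 676 kept their direction and their side of the threshold, 28 passed newly, 9 no longer passed and 37 changed sign. The 9 were all Cyp11a1 in tumour against wild type.

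Of the 10 genes, 1 was called in tumour against wild type. The count was 7 with DESeq2, 3 with no low-count filter, 2 with each TPM scaling, 2 with only the groups compared, 0 with the title stem term, 0 without the 2 libraries with Cyp11b1 and 0 to 3 with each library left out. In tumour against hyperplasia 0 were called, against 4 with DESeq2, 2 with no filter, 1 and 2 on log2 TPM plus 1 and plus 0.1, and 0 to 2 with each library left out. For all mutant samples 0 were called, against 1 with DESeq2, with no filter and on each TPM scale. In hyperplasia against wild type 0 were called under every alternative.

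Over all genes, 259 were called in tumour against wild type, against 1761 with DESeq2, 721 with no filter, 428 and 461 on log2 TPM plus 1 and plus 0.1, 0 with the title stem term, 2 without the libraries with Cyp11b1 and 0 to 404 with each library left out. In hyperplasia against wild type 0 were called, against 21 with DESeq2, 2 with no filter, 1 on log2 TPM plus 1, 3 with only the groups compared and 0 to 3 with each library left out. In tumour against hyperplasia 30 were called, against 805 with DESeq2, 4 with limma-voom, 199 with no filter, 76 and 115 on the TPM scales, 1 with only the groups compared, 12 with the stem term, 1 without the libraries with Cyp11b1 and 0 to 128 with each library left out. For all mutant samples 2 were called, against 633 with DESeq2, 198 with limma-voom, 331 with no filter, 173 and 145 on the TPM scales, 0 with the stem term, 1 without the libraries with Cyp11b1 and 0 to 134 with each library left out. The cause of these differences was not tested.

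Log2 fold changes that changed sign, none of them past the threshold, follow by comparison. In tumour against wild type, Scarb1, at −0.50, was −1.55 to 0.59 with each library left out. Cyp19a1, at 0.31, was −0.62 with limma-voom, −0.41 on log2 TPM plus 1, −0.56 on log2 TPM plus 0.1, −0.17 without the libraries with Cyp11b1 and −0.85 to 1.07 with each library left out. Por, at 0.60, was −0.46 to 0.94 with each library left out. In hyperplasia against wild type, Scarb1, at −0.84, was −1.21 to 0.24 with each library left out. Star, at 0.33, was −0.10 to 0.66 with each library left out. Fdx1, at −0.30, was 0.10 with the stem term and −0.71 to 0.24 with each library left out. Cyp19a1, at 0.53, was −0.14 with limma-voom, −0.088 on log2 TPM plus 0.1 and −1.05 to 1.299 with each library left out. Hsd17b7, at −0.44, was 0.74 with limma-voom, 0.88 on log2 TPM plus 1, 0.91 on log2 TPM plus 0.1 and −2.74 to 3.75 with each library left out. In tumour against hyperplasia, Scarb1, at 0.34, was −0.27 on log2 TPM plus 1, −0.27 on log2 TPM plus 0.1 and −0.72 to 0.70 with each library left out. Cyp19a1, at −0.22, was −1.39 to 1.36 with each library left out. Hsd17b1, at 0.18, was −0.29 without the libraries with Cyp11b1 and −0.59 to 0.66 with each library left out. In all mutant samples against wild type, Scarb1, at −0.67, was −1.19 to 0.41 with each library left out. Cyp19a1, at 0.42, was −0.38 with limma-voom, −0.20 on log2 TPM plus 1, −0.32 on log2 TPM plus 0.1 and −0.37 to 1.19 with each library left out. Hsd17b7, at −3.02, was −4.17 to 1.17 with each library left out. The cause was not tested.

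The TPM scalings moved the median of all genes to −0.12 and −0.15 in tumour against wild type, 0.13 and 0.16 in hyperplasia against wild type and −0.23 and −0.29 in tumour against hyperplasia, so fold changes on those scales are read against these medians. Among the list genes, Hsd11b1, Prlr, Ptgfr and Fam110c no longer passed in tumour against wild type with the stem term (edgeR, BH adjusted p = 0.0700, 0.0965, 0.0523 and 0.0685), and Prlr and Fam110c with only the groups compared (0.0575 and 0.0586). Without the libraries with Cyp11b1, Hsd11b1, Prlr and Fam110c no longer passed (edgeR, BH adjusted p = 0.170, 0.160 and 0.160). Fam110c also missed the threshold on log2 TPM plus 1 and plus 0.1 (limma, BH adjusted p = 0.0546 and 0.0575). In tumour against hyperplasia, Ptgfr no longer passed with limma-voom (BH adjusted p = 0.1002) or with the stem term (edgeR, BH adjusted p = 0.0743). No paired analysis was possible because the labels give the groups no shared replicate numbers. Leaving out the libraries with Cyp11b1 was chosen after seeing the data. With 3 libraries a group and a common biological coefficient of variation of 0.432, moderate differences can be missed, and Hsd3b6 and Hsd11b1 rest on few counts.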
